A study of Homo sapiens with 6 samples.

Results

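The genes described here are 35 genes of sterol and fatty acid synthesis, named as a group for their place in the pathway, with the regulators of that pathway and a pair of lipid storage genes. A gene was measured where the platform's annotation assigned at least 1 probe set to it and to no other gene. That held for 33 of the 35 genes, with 86 probe sets, out of 18132 genes and 44988 such probe sets on the array. CYP51A1 had 2 probe sets, both shared with another gene symbol, and was left out. FDFT1 was not analysed here. RNA came from LX-2, a human hepatic stellate cell line that was immortalised, and was read on Affymetrix arrays that target transcript 3′ ends. Cells grown in DMEM with fetal bovine serum were kept without serum for 12 h. They then received recombinant human BMP9, the product of GDF2, at 0 ng/ml (control, 3 arrays) or 50 ng/ml (BMP9, 3 arrays) for 24 h. Both groups therefore share the serum withdrawal, and all 6 arrays come from this 1 line, which is a model of stellate cells in culture. The labels call the samples biological replicates without naming separate cultures, and p-values here reflect only how far these samples spread.

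Sterols and fatty acids are both built from cytosolic acetyl-CoA. The transcription factors encoded by SREBF2 and SREBF1 are held in the endoplasmic reticulum membrane with their escort SCAP, and INSIG proteins retain the complex there while sterols are plentiful. When sterols fall, SCAP carries the precursors to the Golgi, where proteases release the active factor, which then raises genes of sterol and fatty acid synthesis. Quiescent stellate cells store retinyl esters in lipid droplets and lose them on activation, and PPARG is an adipogenic regulator known for its link to the quiescent state. BMP9 signals through the receptors ACVRL1 and BMPR2 to SMAD proteins. The comparison asks which of these lipid genes differed after BMP9.

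All values are on a log2 scale and were normalised across arrays, which removes most of a change shared by all transcripts. Array medians lay between 3.55 and 3.57, and Pearson's r between arrays across genes was 0.993 to 0.995 within the groups and 0.991 to 0.993 between them. The table holds no detection calls. The 23 GC background probe sets had a median level of 2.39, with a range from 1.67 to 10.0. Of 12 stellate cell markers 11 were measured, at mean levels of 1.96 to 11.4, and 1 was called, COL3A1, which fell by 1.29 (SE 0.075, limma adjusted p = 2.4e-05). At an unadjusted p under 0.05 there were 3, with VIM (-0.37, limma adjusted p = 0.0786) and DCN (-0.74, 0.194) also lower on all BMP9 arrays. Among the rest, COL1A1 (0.052), COL1A2 (0.10), ACTA2 (0.13), LRAT (0.21) and LUM (0.20) were higher on average in BMP9, with groups that overlapped. PDGFRB (-0.0038), TAGLN (-0.011) and DES (-0.017) were slightly lower, also with overlap. The summed level of the 11 markers was 67.9 to 69.7 in control and 66.7 to 67.2 in BMP9. The 9 hepatocyte markers measured of 10 had means of 2.80 to 5.73 and sums of 38.7 to 39.3 and 38.8 to 39.4 in the same order. Sums for the other lists were 26.8 to 27.7 and 27.6 to 27.9 for 6 of 6 adipocyte markers, 25.2 to 25.9 and 25.3 to 26.6 for 6 of 6 macrophage and leukocyte markers, and 23.6 to 24.3 and 23.6 to 24.2 for 5 of 5 endothelial markers. In these 4 other lists limma called 0 of 26 markers (2, both hepatocyte markers, at an unadjusted p under 0.05), and their part in the lipid gene values was not tested. The spiked controls were lower in BMP9 than in control, by a mean difference of -0.21 for 18 hybridisation controls and -0.53 for 24 poly-A controls. Shifting each array by these controls moved the median difference of all genes from 0.014 to 0.23 and 0.55. The differences below are on the deposited scale. Of the 13 synthesis genes with a negative difference, the hybridisation control shift turned 12 positive (all but INSIG2) and the poly-A shift turned all 13.

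Of the sterol and fatty acid synthesis genes 1 rose with BMP9, ACSS2, the cytosolic enzyme that makes acetyl-CoA from acetate. In limma, with p-values adjusted by the Benjamini-Hochberg method over all 18132 genes and a threshold of 0.05, 1 of the 33 measured genes was higher and 0 were lower. Over all genes 0.684% were called, 0.232% higher and 0.452% lower. At an unadjusted p under 0.05 the group held 5 genes, 4 higher (ACSS2, PPARG, INSIG1 and NSDHL) and 1 lower (ACACA), and 12.9% of all genes passed that mark. Differences were positive in 20 genes and negative in 13, where over all 18132 genes 9915 were positive and 8217 negative. The median of the 33 genes was 0.027, against 0.014 for all genes. In a bulk sample, a lower value from fewer cells of a type and one from less RNA per cell cannot be told apart.

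For the brightest probe sets on the deposited scale, the precision was enough to bound the differences of most of these genes. The intervals do not cover a shift of whole arrays such as the spiked controls gave. Genes such as HMGCS1, IDI1 and ELOVL6 lay near the level of the GC background probe sets, which limits what their intervals show. The SE of a difference ran from 0.071 (SCD) to 0.15 (DHCR7), and the 95% interval lay within a 1.5-fold change in either direction for 31 of the 33 genes. The exceptions were ACSS2 and INSIG2. All 33 intervals lay within a 2-fold change. Over all genes, 17722 of 18132 intervals lay within 1.5-fold and 18090 within 2-fold. For the 32 genes other than ACSS2, differences ran from -0.32 (INSIG2) to 0.32 (PPARG), with limma adjusted p from 0.243 to 0.993.

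The arrays of the groups did not overlap in 7 of the 33 genes. BMP9 was on the higher side in 6 (ACSS2, INSIG1, MVD, NSDHL, SQLE and ACLY), against 10.3% of all genes, and on the lower side in 1 (SCAP), against 8.49%. Counting both directions, such separation held for 18.8% of all genes. With 1 array left out, which makes separation easier, the higher count was at most 10 (without BMP9 replicate 3). The lower count was 3 without control replicate 1, 3 without control replicate 2, 2 without control replicate 3, 4 without BMP9 replicate 1 and 3 without BMP9 replicate 2. The median deviation of the 33 genes from their control means was 0.0022, 0.0064 and 0.0057 on the control arrays and 0.029, 0.066 and 0.030 on the BMP9 arrays. The same median over all genes was -0.0016, 0.0020 and -0.0012 on the control arrays and 0.0078, 0.016 and 0.014 on the BMP9 arrays.

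**Figure D1:**
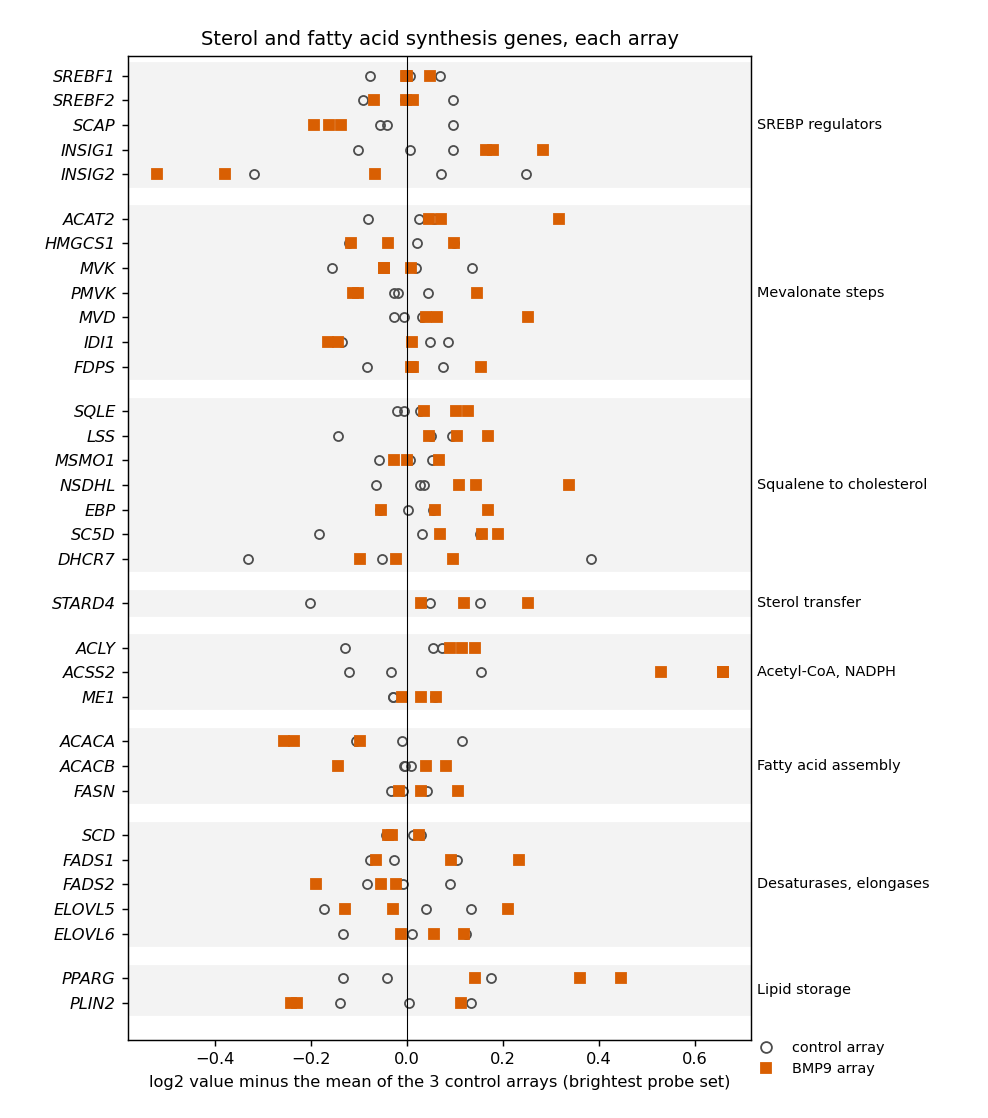
Deviation of each array from the control mean of the gene (log2, horizontal axis) for the 33 measured genes, grouped by role, with open circles for the 3 control arrays and filled squares for the 3 BMP9 arrays. The BMP9 arrays of ACSS2, at levels of 7.05 to 7.18, lie to the right of all its control arrays, whose mean level is 6.52, while for most other genes circles and squares overlap.

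Among the genes that supply acetyl-CoA and NADPH, ACSS2 was the gene that rose. Its brightest probe set read 6.40, 6.48 and 6.67 on the control arrays and 7.18, 7.18 and 7.05 on the BMP9 arrays. The lowest BMP9 array was above the highest control array. The mean rose from 6.52 ± 0.14 to 7.13 ± 0.074 (SD, n = 3 each), a difference of 0.62 (SE 0.089, 95% interval 0.42 to 0.81) or 1.53-fold, with a limma adjusted p of 0.0120. Both shifts by spiked controls add the same amount to the difference of every gene. They gave 0.83 and 1.15 for ACSS2, which is no separate support. The second ACSS2 probe set was dimmer and did not show this rise. It read 4.99, 5.15 and 5.02 in control and 5.22, 4.97 and 5.08 in BMP9, a difference of 0.037 (SE 0.090, with a limma adjusted p of 0.909 in the fit of all probe sets). The mean of both probe sets differed by 0.33 (limma adjusted p = 0.0862), which missed the threshold. The call was also lost without control replicate 1 (0.55, limma adjusted p = 0.0631), control replicate 2 (0.60, 0.0572), BMP9 replicate 1 (0.59, 0.0622) or BMP9 replicate 2 (0.59, 0.0749). Over all alternatives the adjusted p ran from 8.64e-09 to 0.0862.

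The other supply genes did not pass the test. ACLY, which splits cytosolic citrate into acetyl-CoA and oxaloacetate, read 4.81, 5.01 and 4.99 in control and 5.08, 5.05 and 5.02 in BMP9. Its groups were separated by a small margin, with a difference of 0.12 (SE 0.080, 95% interval -0.063 to 0.29, limma adjusted p = 0.587). ME1, the malic enzyme that yields NADPH, differed by 0.027 (95% interval -0.13 to 0.19).

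The 2 start windows that RefSeq lists for ACSS2 on GRCh38.p14 are given beside the windows of SREBF2 and INSIG1. Of these 3 genes, ACSS2 is the called member and SREBF2 the sterol regulator whose window matched the sterol element. INSIG1 is the regulator whose BMP9 arrays all lay above the control arrays. Each window runs from 250 bases before to 50 bases after the start and is written 5′ to 3′ on the plus strand: chr20:34874739-34875038 and chr20:34876362-34876661 for ACSS2, chr22:41832855-41833154 for SREBF2 and chr7:155297628-155297927 for INSIG1. Capitals mark matches on either strand to TCACNCCAC, the core of the sterol regulatory element, to CCAAT, the element of the factor NF-Y, which reads ATTGG on the other strand, or to GGCGCC, a GC-rich element that SMAD proteins of the BMP branch can bind.
ACSS2 window 1: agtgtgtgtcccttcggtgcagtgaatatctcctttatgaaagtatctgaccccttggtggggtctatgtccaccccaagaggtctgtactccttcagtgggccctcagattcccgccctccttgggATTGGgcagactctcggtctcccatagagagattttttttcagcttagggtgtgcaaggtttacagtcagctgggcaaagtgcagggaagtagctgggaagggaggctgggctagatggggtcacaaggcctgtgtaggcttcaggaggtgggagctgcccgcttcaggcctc
ACSS2 window 2: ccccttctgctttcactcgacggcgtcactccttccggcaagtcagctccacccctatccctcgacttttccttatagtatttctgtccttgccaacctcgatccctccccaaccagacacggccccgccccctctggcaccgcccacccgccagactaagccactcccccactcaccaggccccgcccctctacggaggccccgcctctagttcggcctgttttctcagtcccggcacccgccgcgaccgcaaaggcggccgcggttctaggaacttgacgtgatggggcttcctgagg
SREBF2: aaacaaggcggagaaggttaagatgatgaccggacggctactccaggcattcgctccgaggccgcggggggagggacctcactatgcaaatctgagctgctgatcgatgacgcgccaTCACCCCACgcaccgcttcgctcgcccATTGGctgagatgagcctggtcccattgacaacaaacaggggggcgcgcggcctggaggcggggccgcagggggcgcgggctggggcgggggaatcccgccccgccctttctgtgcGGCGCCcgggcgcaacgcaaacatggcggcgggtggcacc
INSIG1: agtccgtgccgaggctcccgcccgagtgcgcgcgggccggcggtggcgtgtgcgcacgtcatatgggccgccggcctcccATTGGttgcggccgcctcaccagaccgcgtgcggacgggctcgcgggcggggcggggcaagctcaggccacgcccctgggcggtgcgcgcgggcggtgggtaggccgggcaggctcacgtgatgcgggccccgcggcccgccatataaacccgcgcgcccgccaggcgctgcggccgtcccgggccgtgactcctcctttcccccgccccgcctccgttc
In the first ACSS2 window the ATTGG match began 123 bases before the start, and the second window held no match. The SREBF2 window held TCACCCCAC 133 bases before the start with ATTGG 106 bases before it, and GGCGCC after the start, at base 261 of the window. In the INSIG1 window ATTGG lay 170 bases before the start.

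RefSeq windows were matched for 31 of the 35 genes, 48 windows in all, some of which overlap. No window was used for FASN, ACAT2, SQLE and FDFT1. The sterol element core was found in 1 of the 48 windows (2.08%), that of SREBF2, against 1.13% of all 35116 windows of the table. CCAAT was found in 26 windows of 22 genes (54.2%), against 34.6% of all windows and 34.7% of 22199 windows of coding genes. GGCGCC was found in 20 windows of 16 genes (41.7%), against 19.2% and 24.3%. These are letter matches in fixed windows and describe no binding. ACSS2 itself was among the genes with CCAAT and not among those with GGCGCC.

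Of the 5 regulators of the pathway, each tested singly on its brightest probe set, 0 were called by limma and 1 (INSIG1) was past an unadjusted p of 0.05. Their median difference was -0.020. SREBF1, the factor best known for fatty acid synthesis genes, read 6.46, 6.54 and 6.61 in control and 6.54, 6.54 and 6.59 in BMP9. The groups overlapped, with a difference of 0.016 (SE 0.074, 95% interval -0.15 to 0.18, limma adjusted p = 0.955). Another SREBF1 probe set read 5.24, 5.10 and 5.08 in control and 4.84, 4.69 and 4.97 in BMP9, so that every BMP9 array was lower. The mean difference was -0.31 (SE 0.093), with a limma unadjusted p of 0.00695 and adjusted p of 0.241 in the fit of all probe sets. The third one differed by 0.14 (limma adjusted p = 0.620). The probe sets of SREBF1 thus had opposite signs, none of them past the threshold.

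SREBF2, the factor best known for sterol synthesis genes, read 5.99, 5.89 and 5.80 in control and 5.90, 5.82 and 5.89 in BMP9. These arrays overlapped throughout, with a difference of -0.020 (SE 0.078, 95% interval -0.19 to 0.15, limma adjusted p = 0.946), which turned positive under both shifts by spiked controls. Its other probe sets differed by 0.12 and 0.017.

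SCAP, the escort protein, had the brightest probe set at 7.03, 7.04 and 7.18 in control and 6.89, 6.92 and 6.94 in BMP9. All BMP9 arrays were below all control arrays, by a mean of -0.16 (SE 0.075, 95% interval -0.33 to 0.0034, limma adjusted p = 0.398). The sign turned under both shifts by spiked controls. The second SCAP probe set read 6.56, 6.58 and 6.54 in control and 6.63, 6.51 and 6.50 in BMP9, which overlap.

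INSIG1, a retention protein whose own gene is a classic SREBP target, read 5.47, 5.27 and 5.38 in control and 5.56, 5.66 and 5.54 in BMP9. Every BMP9 array was higher, by a mean of 0.21 (SE 0.081, 95% interval 0.030 to 0.39), which did not pass the threshold (limma adjusted p = 0.317). Its 2 dimmer probe sets differed by -0.052 and 0.0097. INSIG2, its relative, had the widest spread among the regulators, with 3.67, 3.49 and 3.11 in control and 3.36, 2.90 and 3.05 in BMP9, and its groups overlapped (difference -0.32, SE 0.15, limma adjusted p = 0.408, positive under the poly-A shift at 0.21).

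**Figure D2:**
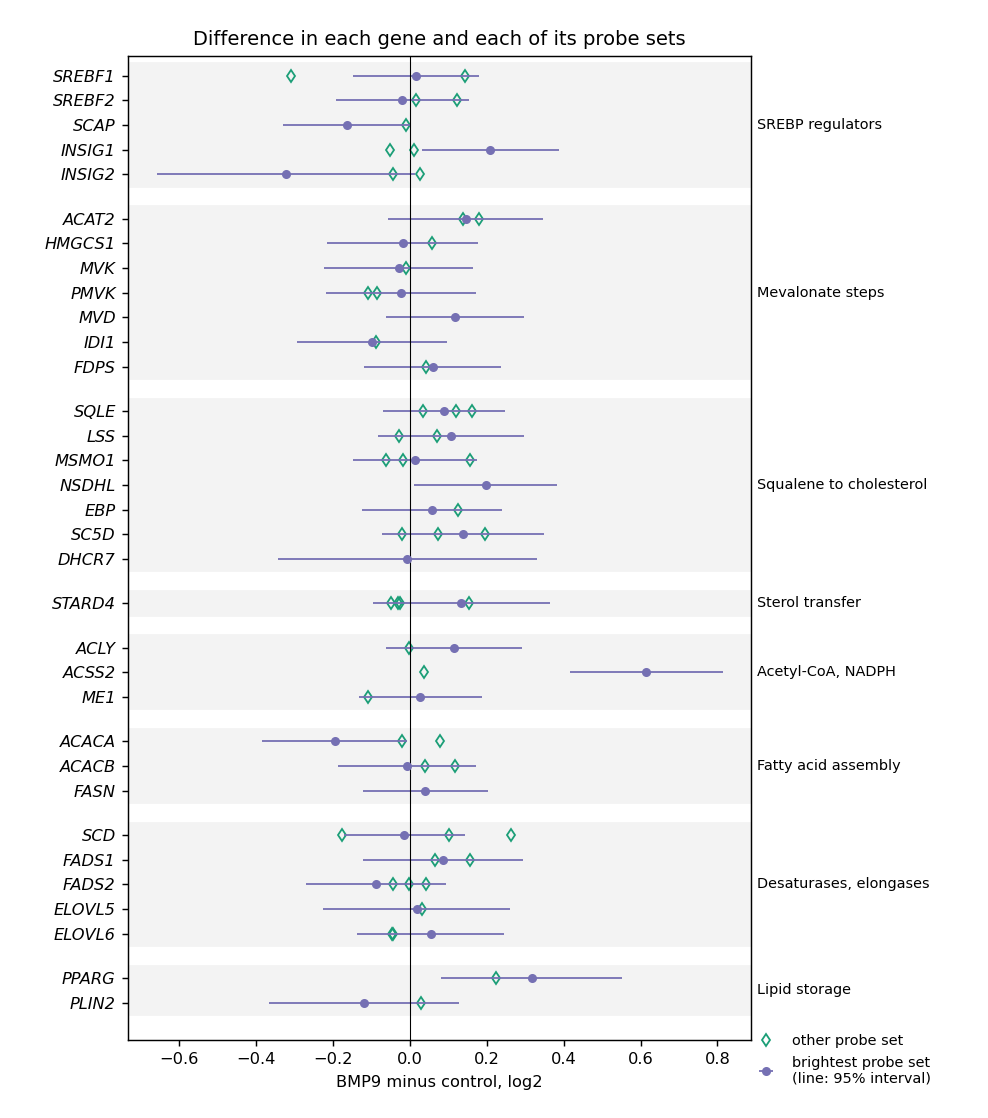
Difference between BMP9 and control (log2, horizontal axis) for the 33 genes by role, with filled circles and 95% interval lines for the brightest probe set and open diamonds for the other 53 probe sets. The ACSS2 interval, 0.42 to 0.81, lies to the right of all the others' centres, while its second probe set sits at 0.037.

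Along the sterol arm, from the mevalonate steps to cholesterol, limma called 0 of the 14 measured genes, and 1 (NSDHL) was past an unadjusted p of 0.05. All 14 intervals lay within a 1.5-fold change. Differences were positive in 9 and negative in 5, with a median of 0.058 and a range from -0.099 to 0.20.

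The 7 mevalonate genes had a median difference of -0.019, with 3 positive and 4 negative, and limma called 0 of them (0 at an unadjusted p under 0.05). MVD, the decarboxylase that makes isopentenyl diphosphate, read 5.53, 5.50 and 5.48 in control and 5.75, 5.54 and 5.56 in BMP9, all from 1 probe set. BMP9 replicate 1 was highest and the groups did not overlap, with a difference of 0.12 (SE 0.081, 95% interval -0.062 to 0.30, limma adjusted p = 0.582). ACAT2, the cytosolic thiolase of the first step, differed by 0.14 (limma adjusted p = 0.541) with groups that overlapped, and its 2 other probe sets by 0.18 and 0.14 with groups that did not. The others were closer to 0. HMGCS1, which makes HMG-CoA, differed by -0.019, the kinases MVK and PMVK by -0.030 and -0.023, the isomerase IDI1 by -0.099 and the farnesyl diphosphate synthase FDPS by 0.059. The 4 negative ones turned positive under both shifts by spiked controls. HMGCS1 and IDI1, at means of 2.60 and 2.21 in control, were near the level of the GC background probe sets.

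The 7 measured genes between squalene and cholesterol had a median difference of 0.089, with 6 positive and 1 negative (DHCR7), and limma called 0 of them (1 at an unadjusted p under 0.05). NSDHL, a dehydrogenase of sterol demethylation, read 4.69, 4.68 and 4.59 in control and 4.99, 4.80 and 4.76 in BMP9 on its 1 probe set. All BMP9 arrays were higher, by a mean of 0.20 (SE 0.084, 95% interval 0.010 to 0.38), short of the threshold (limma adjusted p = 0.361). SQLE, the epoxidase that acts on squalene, read 6.28, 6.23 and 6.25 in control and 6.29, 6.35 and 6.38 in BMP9. The gap between its groups was small, with a difference of 0.089 (SE 0.071, 95% interval -0.069 to 0.25, limma adjusted p = 0.647), and its 3 other probe sets differed by 0.12, 0.16 and 0.033.

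Of the remaining sterol genes, LSS, the lanosterol-forming cyclase, differed by 0.11, the demethylation oxidase MSMO1 by 0.013, the isomerase EBP by 0.057 and the desaturase SC5D by 0.14. Other probe sets differed by 0.070 and -0.027 for LSS and by 0.12 for EBP, with groups that overlapped. For MSMO1 they differed by -0.063, 0.16 and -0.019, and for SC5D by 0.072, -0.020 and 0.20. The groups did not overlap for the 0.16 of MSMO1 and the 0.20 of SC5D (limma adjusted p = 0.479 and 0.362 over all probe sets). Both probe sets were dim, at means of 1.92 and 1.98 over the arrays. DHCR7, the reductase of the last step, differed by -0.0075, positive under both shifts by spiked controls, and its control arrays spread from 3.27 to 3.98. On the array level, the median deviation of these 7 genes from their control means was 0.0022, 0.031 and -0.0054 in control and 0.058, 0.10 and 0.097 in BMP9. STARD4, a cytosolic sterol transfer protein, differed by 0.13 (95% interval -0.096 to 0.36). SC5D and STARD4, at means of 2.84 and 2.92 in control, were near the level of the GC background probe sets.

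In the fatty acid arm, ACSS2 was the 1 gene called among 11. FASN, the synthase that assembles palmitate, read 6.43, 6.48 and 6.41 in control and 6.47, 6.43 and 6.55 in BMP9 on its 1 probe set. The groups overlapped, and the difference of 0.039 (SE 0.073, limma adjusted p = 0.866) had a 95% interval from -0.12 to 0.20. ACACA, the carboxylase that makes malonyl-CoA for synthesis, read 4.65, 4.74 and 4.87 in control and 4.50, 4.65 and 4.52 in BMP9. Only BMP9 replicate 2 and control replicate 1 overlapped, and the difference was -0.20 (SE 0.085, 95% interval -0.38 to -0.0065, limma adjusted p = 0.370). It turned positive under both shifts by spiked controls (0.016 and 0.34, the latter with a limma adjusted p of 0.0495), and its 2 other probe sets differed by 0.078 and -0.021. ACACB, the related carboxylase tied to fatty acid oxidation, differed by -0.0070, positive under both shifts.

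Desaturases and elongases had differences from -0.088 (FADS2, positive under both shifts by spiked controls) to 0.087 (FADS1), with 0 of 5 called by limma and 0 past an unadjusted p of 0.05. SCD, which puts the first double bond into saturated fatty acids, read 4.47, 4.54 and 4.53 in control and 4.48, 4.54 and 4.48 in BMP9. The arrays of both groups covered the same narrow range, with a difference of -0.015 (SE 0.071, 95% interval -0.17 to 0.14, limma adjusted p = 0.955) that turned positive under both shifts by spiked controls. Its 3 other probe sets differed by -0.18, 0.26 and 0.10, with the second of them at an unadjusted p of 0.0268 and a limma adjusted p of 0.367. The elongases ELOVL5 and ELOVL6 differed by 0.018 and 0.054, at levels near those of the GC background probe sets.

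The storage genes had values on either side of 0, and limma called 0 of the 2 (1, PPARG, at an unadjusted p under 0.05). PPARG read 2.77, 2.99 and 2.68 in control and 3.18, 2.96 and 3.26 in BMP9. BMP9 replicate 2 was below control replicate 2, and the difference was 0.32 (SE 0.11, 95% interval 0.081 to 0.55, limma adjusted p = 0.243). Its second probe set read 2.60, 2.59 and 2.55 in control and 2.92, 2.73 and 2.77 in BMP9, so the groups did not overlap, with a difference of 0.22 (limma adjusted p = 0.338 over all probe sets). Both PPARG probe sets were therefore higher on average in BMP9, at levels near those of the GC background probe sets.

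PLIN2, a coat protein of lipid droplets, read 4.96, 5.10 and 5.23 in control and 5.21, 4.87 and 4.85 in BMP9. BMP9 replicate 1 was close to the highest control array, and the difference of -0.12 (SE 0.11, 95% interval -0.37 to 0.13, limma adjusted p = 0.698) turned positive under both shifts by spiked controls. Its other probe set differed by 0.028.

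Across all 86 probe sets of the 33 genes, fitted with every single-gene probe set of the array, 1 was called by limma (that of ACSS2, adjusted p = 0.0157), against 0.436% of all probe sets. Groups did not overlap in 13 of the 86, 11 higher and 2 lower in BMP9, against 17.3% of all probe sets. The 53 other probe sets of the 29 genes with more than 1 differed by -0.31 (SREBF1) to 0.26 (SCD), and limma called 0 of them (4 at an unadjusted p under 0.05). Probe sets of a gene can read different transcript ends and are not replicates.

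**Figure D3:**
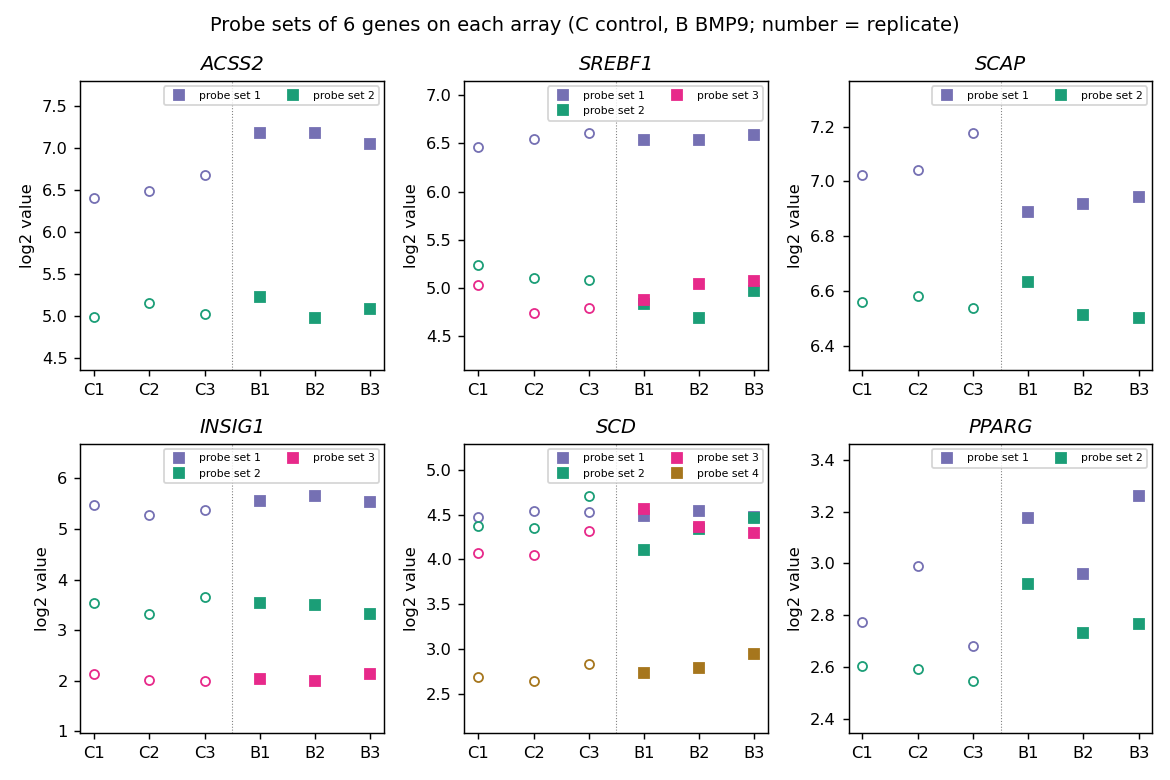
Log2 value of every probe set of 6 genes on each array (vertical axis), with open circles for control and filled squares for BMP9, 1 colour for each probe set. Probe set 1 of ACSS2 is higher on all BMP9 arrays and probe set 2 is not, while for SREBF1 probe set 2 is lower on all BMP9 arrays and probe set 1 overlaps.

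Neighbouring lipid pathways gave 1 called gene, RNF139, a ubiquitin ligase of the endoplasmic reticulum with a sterol-sensing domain, which fell. Of 96 genes named in 7 lists, 88 were measured, and limma called 0 higher and 1 lower, with 12 higher and 2 lower at an unadjusted p under 0.05. Over all genes 0.684% were called and 12.9% passed the unadjusted mark. Differences of the 88 genes were positive in 54 and negative in 34, against 9915 positive and 8217 negative over all genes. Their median was 0.029, and 84 of the 88 intervals lay within 1.5-fold. Groups did not overlap in 16 with BMP9 higher, against 10.3% of all genes, and in 5 with BMP9 lower, against 8.49%.

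RNF139 read 8.34, 8.14 and 8.23 in control and 7.75, 7.58 and 7.73 in BMP9. All BMP9 arrays were lower. The mean fell from 8.24 ± 0.099 to 7.69 ± 0.094 (SD, n = 3 each), a difference of -0.55 (SE 0.084, 95% interval -0.74 to -0.36, limma adjusted p = 0.0175) or 1.46-fold lower. Its other probe set was dim, with a difference of -0.060 (limma adjusted p = 0.827). The call was lost with the mean of both probe sets (-0.31, limma adjusted p = 0.0894) and under the poly-A shift (-0.018, adjusted p = 0.913). It was also lost without control replicate 1 (-0.50, 0.0839), control replicate 3 (-0.55, 0.0634), BMP9 replicate 1 (-0.58, 0.0505), BMP9 replicate 2 (-0.50, 0.0892) or BMP9 replicate 3 (-0.57, 0.0635).

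In the list of sterol synthesis and SREBP processing genes other than those above, RNF139 was the 1 called of 9 measured of 12, with a list median of -0.035. The sterol trafficking, storage and efflux list had 0 of 16 called by limma (1 higher at an unadjusted p under 0.05) and a median of 0.035. There the smallest p belonged to NPC1, which exports cholesterol from lysosomes (0.30, limma adjusted p = 0.246), and to the sterol hydroxylase CYP27A1 (0.16, 0.428). The other NPC1 probe set differed by -0.055. Among 15 other fatty acid chain synthesis genes limma called 0 (3 higher at an unadjusted p under 0.05), with a median of 0.049. ACSS1, the mitochondrial relative of ACSS2, read 5.62, 5.86 and 5.76 in control and 5.97, 6.17 and 6.05 in BMP9, with no overlap and a difference of 0.32 (SE 0.090, limma adjusted p = 0.182). Its other probe sets differed by 0.23, with no overlap, and by -0.16, with groups that overlapped. MID1IP1, which promotes assembly of the carboxylase, differed by 0.23 (limma adjusted p = 0.224).

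The fatty acid uptake and activation list had 0 of 11 called by limma (2 higher at an unadjusted p under 0.05) and a median of 0.042. CD36, a fatty acid translocase, read 2.18, 2.20 and 1.94 in control and 2.65, 2.34 and 2.65 in BMP9. Its groups did not overlap, at levels near the GC background probe sets, with a difference of 0.44 (SE 0.11, limma adjusted p = 0.120). The other CD36 probe sets overlapped, with differences of 0.018 and 0.095. The transporter SLC27A1 differed by 0.28 (limma adjusted p = 0.183), and its other probe sets by 0.090, -0.052, -0.070 and -0.044. Triglyceride and lipid droplet genes had a median of 0.068 and 0 of 17 called by limma (1 higher at an unadjusted p under 0.05), where LPIN1, a phosphatidate phosphatase, differed by 0.24 and the acyltransferase DGAT1 by -0.21, which turned positive under both shifts by spiked controls. The other LPIN1 probe sets differed by -0.079 and 0.057, and that of DGAT1 by 0.039.

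Fatty acid oxidation genes had a median of -0.027 and 0 of 13 called by limma (2 higher at an unadjusted p under 0.05). PDK4, a kinase that turns off pyruvate dehydrogenase, read 3.30, 3.21 and 3.22 in control and 3.69, 3.50 and 3.65 in BMP9. Its arrays were well separated, with a difference of 0.37 (SE 0.079) and a limma adjusted p of 0.0786, above the threshold. The other PDK4 probe set was dimmer and overlapped, with a difference of -0.039. PPARA, a nuclear receptor of fatty acid oxidation, differed by 0.26 (limma adjusted p = 0.302) on the brightest of its 9 probe sets. Another one was lower on all BMP9 arrays, with a difference of -0.30 (limma adjusted p = 0.259 in the fit of all probe sets). The remaining ones overlapped, with differences from -0.18 to 0.070. The 7 adipogenic transcription factor genes had a median of 0.025 and 0 called by limma (2 higher and 1 lower at an unadjusted p under 0.05), with EBF1 at -0.30 (limma adjusted p = 0.121), positive under the poly-A shift, and RXRB at 0.22 (limma adjusted p = 0.243). Other probe sets differed by -0.084 and -0.27 for EBF1 and by 0.0056, 0.29, 0.0054 and 0.14 for RXRB.

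EBF1 passed the threshold in 2 of the other settings: with genes of a mean log2 value of at least 5 (adjusted p = 0.0266) and with an intensity trend and robust prior in limma (adjusted p = 0.0402). On the brightest probe sets of those named here from the 7 lists, DGAT1 alone had groups that overlapped. These genes were named for a call or for the smallest p in their list, so their separation follows from that choice. Over all genes, groups did not overlap for 18.8%.

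**Figure D4:**
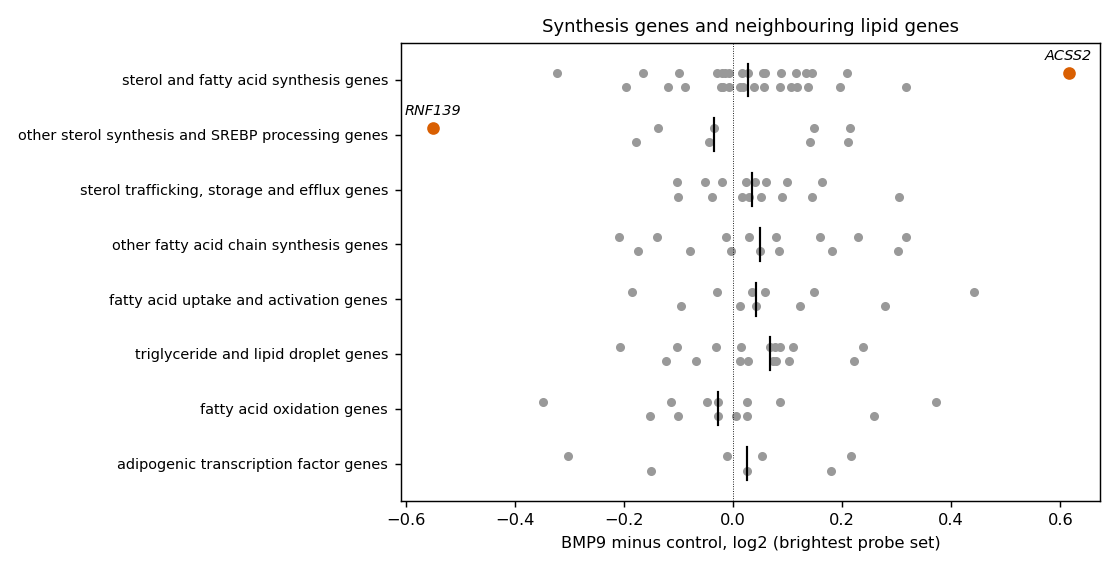
Difference between BMP9 and control (log2, horizontal axis) for the 33 synthesis genes (top row) and every measured gene of the 7 neighbouring lists, 1 point a gene, with the median of each list as a vertical bar and called genes in orange. Medians of the 7 neighbouring lists lie between -0.035 and 0.068, and ACSS2 at 0.62 and RNF139 at -0.55 are the genes past the threshold.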

How the data were processed

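Total RNA of 6 LX-2 samples was measured on 3′ expression arrays, and the deposited values are log2 expression per probe set. Per the submitters' processing notes the authors used RMA, a robust average over the probes of a set. No software, version, setting or log base for it is given in the sources used here; base 2 rests on what RMA usually writes and on the value range. Of 49395 probe sets, 102 were array controls, 44988 carried 1 gene symbol, 1832 several and 2473 none. Each gene was read from the brightest of its single-gene probe sets (mean over the 6 arrays), with no filter on dim ones. The groups were compared by limma 3.58.1 (lmFit, eBayes, constant prior, two-sided) under R 4.3.3, over all 18132 genes and, separately, all 44988 probe sets, with Benjamini-Hochberg adjustment and a threshold of 0.05. Residual degrees of freedom were 4 and prior ones 6.13. The code was checked on simulated data. The number of arrays limits the precision.

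The genes, roles and lists were chosen with earlier results of these data known. Among the 33 measured genes, values on every array are given for those called, those whose groups do not overlap, and always SREBF1, SREBF2, SCAP, INSIG1, FASN, SCD, PPARG and PLIN2; from each neighbouring list, called genes or the 2 with the smallest p are named. The array values of INSIG2, ACACA, ACSS1, CD36 and PDK4, and those of second probe sets, were added after they were seen. Alternatives were the replicate number as a block, array centring, quantile normalisation, shifts by hybridisation or poly-A controls, a minimum mean log2 value of 5, the mean over probe sets, no _s_at or _x_at probe sets, an intensity trend with robust prior, a threshold of 0.1, a stricter sterol element and each array left out. Promoter windows are from RefSeq (GRCh38.p14). Figures were drawn with matplotlib 3.10.9.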

Additional observations from a re-analysis of the deposited data

How the results depend on the processing

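The differences of the 33 measured synthesis genes (20 of them added to these alternatives after seeing the data) and of 13 genes from the neighbouring lists gave 663 repeated values. Of these, 545 kept their direction and side of the threshold, 51 newly passed it without a change of sign, 12 lost it and 55 changed sign. Values that changed sign could also pass the threshold, as SREBF2 did under poly-A scaling (limma adjusted p = 0.00391). The shifts by spiked controls raise the difference of every gene by the same amount, which fixes part of these moves. Outside these shifts, EBF1 alone newly passed the threshold, in the 2 settings given above. Other causes of the moves were not tested. ACSS2 stayed the 1 gene called under the replicate block (27 genes higher and 67 lower over the array, where 42 and 82 were called without it), array centring, quantile normalisation, the intensity filter (16 of the 33 genes tested), no _s_at or _x_at probe sets (30 tested), the trend prior (103 higher, 182 lower) and a threshold of 0.1 (97 higher, 167 lower). Replicate numbers did not pair the samples: same-numbered arrays had correlations of deviations of 0.0038, 0.046 and -0.021. With the mean over probe sets 0 genes were called higher, and with an array left out 0 to 1. Hybridisation control scaling gave 11 called higher, 22 separated upward and 0 downward, and a median of 0.24, with 4843 genes of the array higher and 72 lower. Poly-A control scaling gave 32, 30, 0 and 0.56, with 16893 higher and 19 lower. Genes separated downward numbered 2 with centring, 2 with quantile normalisation, 2 with the mean over probe sets and 0 without _s_at or _x_at probe sets, and 1 to 4 with an array left out, against 7 to 10 upward. Signs that changed under hybridisation control scaling were SREBF2 (0.19), SCAP (0.047), SCD (0.20), PLIN2 (0.092), HMGCS1 (0.19), MVK (0.18), PMVK (0.19), IDI1 (0.11), DHCR7 (0.20), ACACA (0.016), ACACB (0.20), FADS2 (0.12) and DGAT1 (0.0046), and under poly-A control scaling SREBF2 (0.51), SCAP (0.37), SCD (0.52), PLIN2 (0.41), INSIG2 (0.21), HMGCS1 (0.51), MVK (0.50), PMVK (0.51), IDI1 (0.43), DHCR7 (0.52), ACACA (0.34), ACACB (0.53), FADS2 (0.44), DGAT1 (0.33) and EBF1 (0.23). With the mean over probe sets the changed signs were SREBF1 (-0.050), SREBF2 (0.040), SCD (0.043), HMGCS1 (0.020), ME1 (-0.041), ACACB (0.050), ELOVL6 (-0.012) and PPARA (-0.019), and without _s_at or _x_at probe sets HMGCS1 (0.058) and LPIN1 (-0.079). With an array left out, SREBF1 ran from -0.022 to 0.051, SREBF2 from -0.066 to 0.028, HMGCS1 from -0.079 to 0.030, MVK from -0.11 to 0.038, PMVK from -0.11 to 0.022, MSMO1 from -0.015 to 0.039, DHCR7 from -0.17 to 0.18, ACACB from -0.051 to 0.061, ELOVL5 from -0.079 to 0.091 and ELOVL6 from -0.012 to 0.12. Levels near the GC background probe sets, as for HMGCS1, IDI1, SC5D, STARD4, ELOVL5, ELOVL6, PPARG and CD36, limit what these arrays can show.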
